A study of Mus musculus with 2 samples.

Results

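The genes described here are the 75 expressed lincRNA and antisense genes of CT26 cells, a mouse colon carcinoma line. They were chosen by the measured level itself, as the entries of those classes in the deposited table whose larger FPKM value (fragments per kilobase of gene length at a common depth) in the libraries was at least 5. The table holds 54532 genes, of which 8385 are lincRNA or antisense entries. Of these 8385 entries, 5239 had 0 reads in both libraries, 3146 had reads, 462 reached 1 FPKM and 75 reached 5 FPKM, 60 of them lincRNA and 15 antisense. Only 32 of the 75 reached 10 FPKM and 6 reached 50 FPKM.

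The study set CT26 cells made to express Oct4 and SOX2 against CT26 cells labelled wild type. Lentivirus carried mouse Oct4 and human SOX2 in one culture and the empty expression vector in its control, and all cells were grown for 4 days in RPMI medium with serum. The series' title calls the Oct4 and SOX2 cells de-differentiated. Each group holds 1 library of total RNA, so there is no replicate, no test across samples was possible, and every difference below compares these libraries. The Oct4 and SOX2 library held 31521115 gene-assigned reads and the control library 32262408. The 75 genes took 0.393% of the reads in the Oct4 and SOX2 library and 0.444% in the control library. The labels were checked on Pou5f1, the mouse gene for Oct4, which had 12406 reads in the Oct4 and SOX2 library and 0 in the control. Mouse Sox2 had 23.3 FPKM from 1525 reads in the Oct4 and SOX2 library and 14.1 FPKM from 929 reads in the control, and since the vector carries human SOX2 these reads are a weak check of that label. Of 12 colon and intestinal epithelial markers 2 (Krt18 and Krt20) reached 1 FPKM, Cdh1 and Cdx1 had 0 reads in both libraries, and 6 of 7 mesenchymal markers reached 1 FPKM. The summed mesenchymal level was 1458 FPKM in the Oct4 and SOX2 library, against 979 FPKM in the control, most of it from Vim and Fn1. Within that list Col1a1 went the other way, at 39.99 FPKM in the Oct4 and SOX2 library and 62.1 FPKM in the control, as did Zeb1, at 4.604 and 4.953 FPKM in the same order. Leukocyte markers summed to 4.29 FPKM in the Oct4 and SOX2 library and 5.54 FPKM in the control. Nearly all of this was Cd68, a macrophage marker, at 4.27 and 5.53 FPKM in the same order. Endothelial markers summed to 0.580 and 0.120 FPKM in that order, mostly from Tek. Neuron markers summed to 9.92 and 4.23 FPKM, mostly from Tubb3. Skeletal muscle markers summed to 0.373 and 0.0612 FPKM, from Acta1 with 13 and 3 reads and Ckm with 10 and 0. Cdh5, Pecam1, Myod1, Myog, Tnnt3, Snap25 and Rbfox3 had 0 reads in both libraries, so these sums are not read as cell types. In bulk RNA, fewer cells of a type and less RNA per cell cannot be told apart.

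LincRNAs are transcripts made from the stretches between coding genes, usually capped and spliced like messenger RNA but not translated into a known protein. Antisense RNAs are made from the strand opposite a coding gene. Some act at the place where they are made and affect neighbouring genes, some shape nuclear bodies or bind proteins and microRNAs elsewhere in the cell, and for many no role is known. Their levels are usually lower and more specific to a cell type than those of coding genes. Of the 75 genes, 44 carry only a Gm model number and 14 only a Riken clone name.

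The gene furthest above the control was Gm47524, a lincRNA (ENSMUSG00000112228) with no named function. It lies on the plus strand of chromosome 10 from 113113389 to 113117926 in GRCm38. Its 3 exons join into a transcript of 358 bases, printed here in full because it was read in only one of the libraries. Capitals mark an exact repeat of 18 bases that starts at transcript positions 13 and 165.
Gm47524 exon 1, chr10:113113389-113113467: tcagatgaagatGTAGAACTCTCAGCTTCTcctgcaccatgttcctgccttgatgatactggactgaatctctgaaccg
Gm47524 exon 2, chr10:113115366-113115545: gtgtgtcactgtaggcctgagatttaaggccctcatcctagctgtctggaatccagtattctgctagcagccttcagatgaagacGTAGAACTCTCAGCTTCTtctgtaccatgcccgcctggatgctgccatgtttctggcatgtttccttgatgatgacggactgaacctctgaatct
Gm47524 exon 3, chr10:113117828-113117926: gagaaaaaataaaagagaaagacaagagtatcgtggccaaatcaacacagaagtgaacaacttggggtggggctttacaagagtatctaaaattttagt
The exons are from GENCODE M21 on GRCm38. Gm47524 had 18.6 FPKM from 212 reads in the Oct4 and SOX2 library, against 0 FPKM and 0 reads in the control library. It was at least 70.8-fold higher by a floor of 3 reads in the control, and the lower limit of the exact 95% counting interval was 57.1-fold. At 95% identity or more, the transcript matched 1 other annotated gene, over 39 bases or 10.9% of its length: the antisense gene Gm15283 on chromosome 12. Gm15283 had 0.253 FPKM in the Oct4 and SOX2 library and 0.266 FPKM in the control.

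As a set, the genes lay on both sides of the control. A gene is called 2-fold different where the log2 ratio of its FPKM + 1 values, the Oct4 and SOX2 library over the control, is at least 1 or at most -1. By this rule of size, 7 of the 75 passed 2-fold upward with Oct4 and SOX2, 2 passed it downward and 66 were within 2-fold. Of all 8235 genes that met the same 5 FPKM minimum, 1.76% were higher, 1.47% lower and 3.23% past 2-fold either way. Of the 7627 coding genes among them, 1.38% were higher, 1.19% lower and 2.57% past 2-fold either way. The minimum was set on the larger of the same values, so these shares describe how the genes were chosen and are not read as a result about them. A gene near 5 FPKM that passed through one library had to be lower in the other. Of the 75 genes, 47 reached 5 FPKM in both libraries, 19 only in the Oct4 and SOX2 library and 9 only in the control library. Of the 9 genes past 2-fold, Gm13470 alone reached 5 FPKM in both.

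The median log2 ratio of the 75 genes was 0.14, with quartiles at -0.25 and 0.49, 43 genes above 0 and 32 below. Over all genes at 5 FPKM the median was -0.02 and the quartiles -0.22 and 0.18, with 3885 of 8235 above 0. Of the 32 among the 75 genes that reached 10 FPKM, 16 were above 0 and 16 below. Among the antisense genes 11 of 15 were above 0, with a median of 0.27, and among the lincRNAs 32 of 60, with a median of 0.10. Of these antisense genes, Gm13375, Gt(ROSA)26Sor, A830082K12Rik and Gm28809 met the minimum only through the Oct4 and SOX2 library. The 75 genes were also measured from fewer reads than coding genes at the same minimum. Their median was 290 reads in the library where each was larger, over a median length of 995 bases, against 2302 reads and 4329 bases for coding genes. With counting error alone, the 95% interval of the plain FPKM ratio lay above 1 for 35 genes, below 1 for 21 and held 1 for 19. Of all 8235 genes, which have more reads, it lay above 1 for 35.0% and below 1 for 40.5%. The interval lay wholly beyond 2-fold for 3 genes on the higher side (Gm47524, Gm13470 and Gm32618) and 2 on the lower side (Gm32856 and Gm49539), beside 1.48% and 1.31% of all 8235 genes. These intervals cover counting error only, since 1 library per group shows no spread between cultures. Reads copied by PCR are not independent molecules, so the counting error itself can also be larger.

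**Figure D1:**
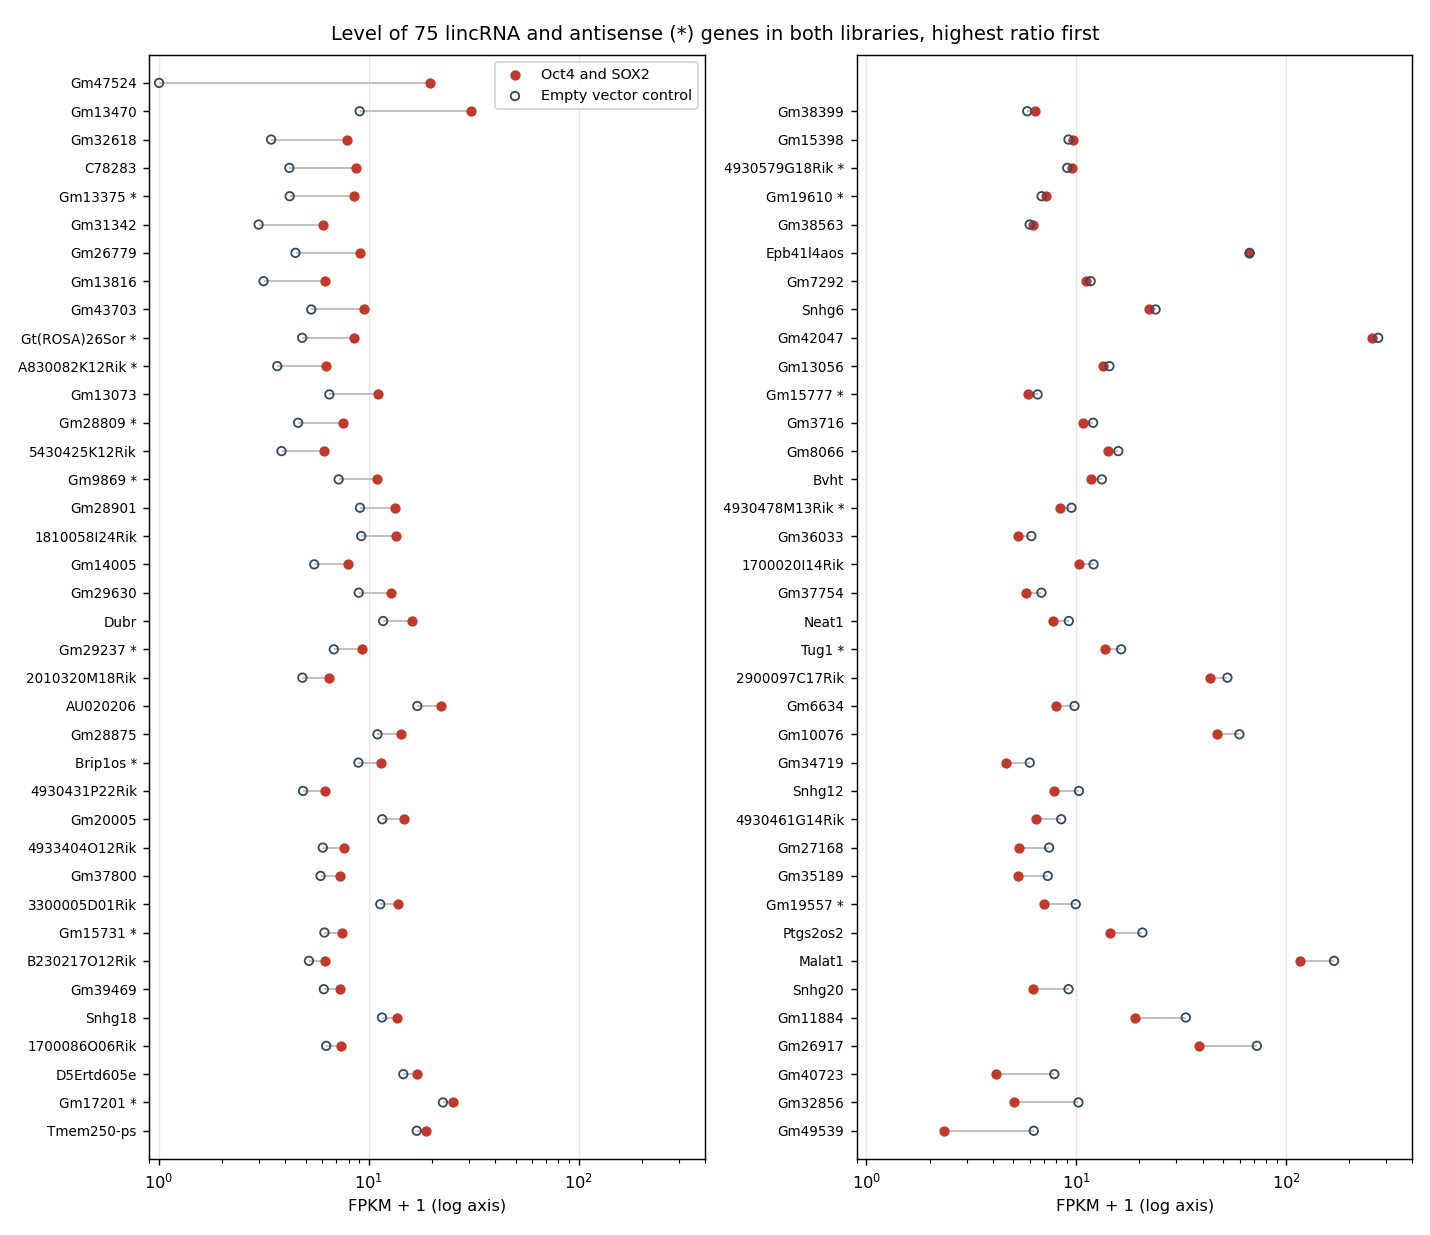
Level of each of the 75 genes on a log axis of FPKM + 1, ordered by ratio from the highest (top left) to the lowest (bottom right); filled points are the Oct4 and SOX2 library and open points the empty vector control, 1 library each, and an asterisk marks antisense genes. Most pairs of points lie close together, Gm47524 is at 0 FPKM in the control alone, and Gm42047 and Malat1 lie farthest right.

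**Figure D2:**
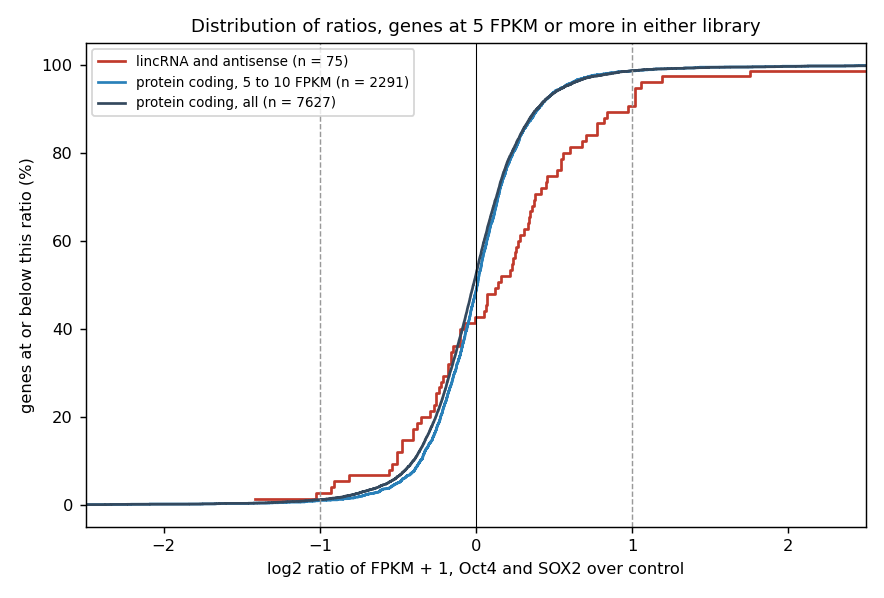
Cumulative share of genes (%) against the log2 ratio of FPKM + 1 (positive where Oct4 and SOX2 is higher), drawn separately for the 75 lincRNA and antisense genes, for coding genes between 5 and 10 FPKM and for all coding genes at 5 FPKM or more; dashed lines mark 2-fold either way. The curve of the 75 genes is wider, with its quartiles at -0.25 and 0.49.

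Among the genes higher with Oct4 and SOX2, Gm13470 had the highest level. This lincRNA (ENSMUSG00000086644), with 3 exons on the minus strand of chromosome 2 from 46419535 to 46442710, had 29.5 FPKM from 396 reads in the Oct4 and SOX2 library, against 8.04 FPKM from 108 reads in the control. It was 3.67-fold higher (95% counting interval 2.96 to 4.59). It lies far from coding genes in use: no coding gene at 1 FPKM or more lay within 500 kb, and the nearest, at 1302140 bases, was Zeb2, which encodes a repressor known from the epithelial to mesenchymal transition. Zeb2 itself had 7.24 FPKM in the Oct4 and SOX2 library and 7.30 FPKM in the control.

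Gm32618 (ENSMUSG00000115317) is a lincRNA of 4 exons on the plus strand of chromosome 15, from 32778904 to 32796006. It had 6.82 FPKM from 290 reads in the Oct4 and SOX2 library, against 2.42 FPKM from 103 reads in the control, 2.82-fold higher (2.25 to 3.57). Sdc2, the gene of the cell-surface proteoglycan syndecan 2, lies 124717 bases downstream on the same strand. Sdc2 had 88.4 FPKM in the Oct4 and SOX2 library, against 29.7 FPKM in the control, 2.98-fold higher (2.86 to 3.10). Between them no other coding gene at 1 FPKM was found; Sema5a, a semaphorin gene 82563 bases upstream, is nearer and had 11.2 FPKM in the Oct4 and SOX2 library and 16.4 FPKM in the control. The end of exon 2 of Gm32618 repeats the start of the Sdc2 coding sequence, and the stretches are printed to show how close they are. Capitals mark the 1 base of 60 that differs, an identity of 98.3%.
Gm32618 exon 2, last bases, chr15:32779371-32779430: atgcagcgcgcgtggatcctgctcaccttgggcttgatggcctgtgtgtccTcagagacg
Sdc2 exon 1, coding part, chr15:32921246-32921305: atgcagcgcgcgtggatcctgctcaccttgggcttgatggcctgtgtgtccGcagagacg
Both are on the plus strand of GRCm38, from GENCODE M21. The whole matching stretch covered 119 bases, or 8.92% of the Gm32618 transcript. How reads matching several places were counted is not given in the sources used here, and the part of Sdc2 reads in the Gm32618 value was not tested.

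The other genes past 2-fold on the higher side were low in the control. C78283, a lincRNA of chromosome 5 (73946381 to 73948376), had 7.70 FPKM from 208 reads in the Oct4 and SOX2 library, against 3.18 FPKM from 86 reads in the control, 2.42-fold higher (1.88 to 3.15). Gm31342, a lincRNA of chromosome 15 (67040058 to 67040824), had 5.04 FPKM from 66 reads in the Oct4 and SOX2 library, against 1.98 FPKM from 26 reads in the control, 2.54-fold higher (1.59 to 4.17). It had the fewest reads of these genes and was among the 3 nearest above the minimum. Gm26779, a lincRNA of chromosome 5 (109886231 to 109891137), had 8.03 FPKM from 141 reads in the Oct4 and SOX2 library, against 3.47 FPKM from 61 reads in the control, 2.32-fold higher (1.70 to 3.18). The antisense gene Gm13375, on chromosome 2 (20969054 to 20969997), had 7.497 FPKM from 204 reads in the Oct4 and SOX2 library, against 3.19 FPKM from 87 reads in the control, 2.35-fold higher (1.82 to 3.06). Its start lies 173 bases from that of Arhgap21, a coding gene read in the other direction. Arhgap21 had 20.6 FPKM in the Oct4 and SOX2 library and 17.9 FPKM in the control, 1.15-fold higher (1.11 to 1.19).

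Just under the rule stood Gm13816, at 5.18 FPKM in the Oct4 and SOX2 library and 2.15 FPKM in the control, with a log2 ratio of 0.97 and a plain ratio of 2.41 (1.72 to 3.44). Gt(ROSA)26Sor, the locus widely used to carry transgenes in mice, had 7.48 FPKM from 404 reads in the Oct4 and SOX2 library, against 3.81 FPKM from 206 reads in the control, 1.97-fold higher (1.66 to 2.33). Its coding neighbours lay closer to the control. Setd5, whose start is 32 bases away, had 11.8 FPKM in the Oct4 and SOX2 library and 11.7 FPKM in the control. Thumpd3, which it overlaps on the opposite strand, had 7.37 and 8.30 FPKM in the same order, 1.13-fold lower (1.05 to 1.21). A830082K12Rik, antisense to the orphan nuclear receptor gene Nr2f1, had 5.27 FPKM from 1385 reads in the Oct4 and SOX2 library and 2.66 FPKM from 700 reads in the control, 1.98-fold higher (1.81 to 2.17). Gm43703 had 8.51 FPKM in the Oct4 and SOX2 library and 4.31 FPKM in the control, 1.98-fold higher (1.55 to 2.52). Gm13073 had 10.1 and 5.48 FPKM in the same order, 1.84-fold higher (1.40 to 2.42).

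On the lower side, Gm49539 was the gene furthest below the control. This lincRNA (ENSMUSG00000116004), on the plus strand of chromosome 15 from 85646083 to 85667675, had 1.35 FPKM from 22 reads in the Oct4 and SOX2 library, against 5.27 FPKM from 86 reads in the control. It was 3.90-fold lower (2.42 to 6.55). Gm32856 (ENSMUSG00000110605), on the plus strand of chromosome 8 from 129263641 to 129282844, had 4.03 FPKM from 619 reads in the Oct4 and SOX2 library, against 9.24 FPKM from 1423 reads in the control, 2.29-fold lower (2.09 to 2.53). With the most reads of the 9 genes past 2-fold, Gm32856 had the narrowest interval. Gm40723 fell just short of the rule, at 3.12 FPKM in the Oct4 and SOX2 library and 6.86 FPKM in the control, with a plain ratio of 2.20-fold lower (1.61 to 3.03). Gm11884 had 18.0 FPKM in the Oct4 and SOX2 library and 32.3 FPKM in the control, 1.79-fold lower (1.58 to 2.05). The remaining genes of the 12 lowest were Gm19557, Gm35189, Gm27168 and 4930461G14Rik, at 1.38-fold to 1.49-fold lower, with Ptgs2os2, Malat1, Snhg20 and Gm26917, described below.

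**Figure D3:**
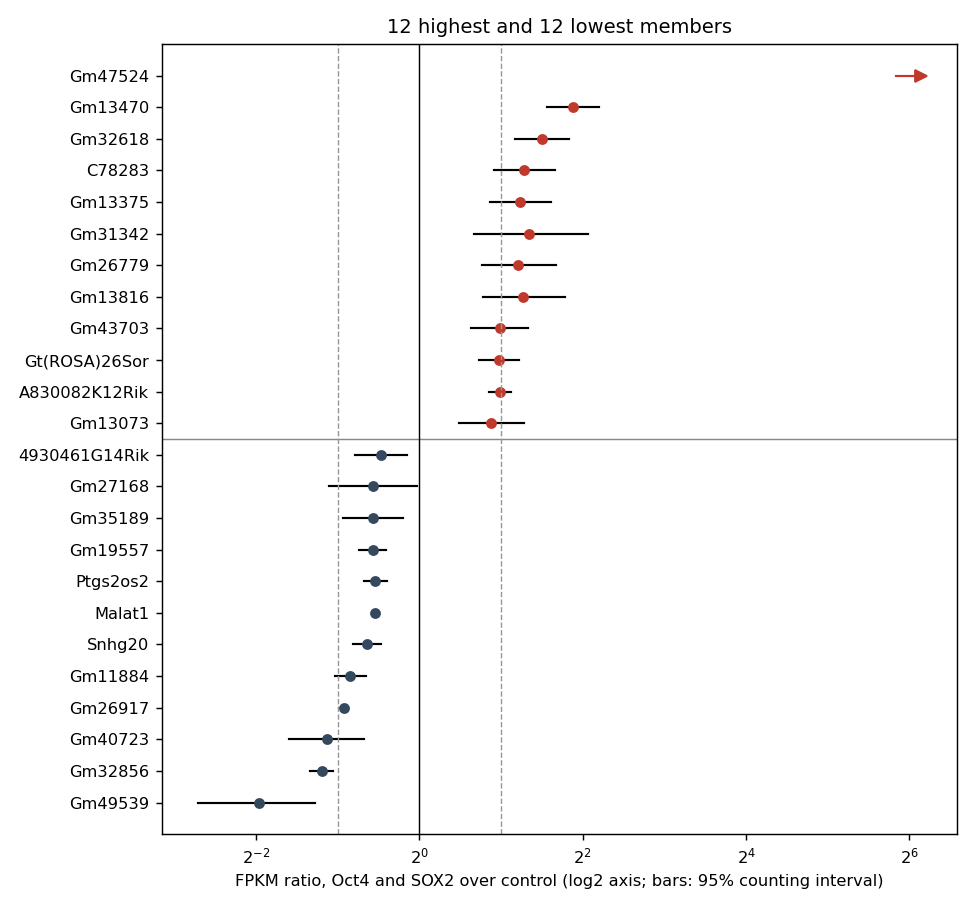
Plain FPKM ratio, Oct4 and SOX2 over control, on a log2 axis for the 12 highest and 12 lowest of the 75 genes by log2 ratio of FPKM + 1; bars are 95% counting intervals from the reads of 1 library per group, the arrow at Gm47524 starts at its lower limit, and dashed lines mark 2-fold. Intervals are widest for the genes with fewest reads, such as Gm31342 and Gm49539, and too narrow to see for Malat1 and Gm26917.

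Of the 75 genes, 10 belong to lists of named regulatory RNAs, and 9 of these 10 had a log2 ratio below 0, each by less than 2-fold. Of all 8235 genes at 5 FPKM, 4350 were below 0, and of the 12401 genes at 1 FPKM, 6408. Malat1, an abundant RNA of nuclear speckles, had 115 FPKM from 25674 reads in the Oct4 and SOX2 library, against 168 FPKM from 37500 reads in the control, 1.46-fold lower (1.43 to 1.48). Neat1, which scaffolds paraspeckles, had 6.71 FPKM in the Oct4 and SOX2 library and 8.21 FPKM in the control, 1.22-fold lower (1.18 to 1.27). Tug1 had 12.7 FPKM in the Oct4 and SOX2 library and 15.4 FPKM in the control, 1.21-fold lower (1.16 to 1.26). The nuclear and cytoplasmic architecture list held 7 genes at 1 FPKM or more, 4 of them among the 75, and all 7 had a log2 ratio below 0, with a median of -0.26. None of the 7 was 2-fold lower.

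2900097C17Rik carries the symbol Norad in RefSeq. The human NORAD RNA is known to bind Pumilio proteins, which repress messenger RNAs. 2900097C17Rik had 42.5 FPKM from 6662 reads in the Oct4 and SOX2 library, against 51.5 FPKM from 8080 reads in the control, 1.21-fold lower (1.17 to 1.25). Its transcript of 4915 bases holds 11 copies of the Pumilio motif TGTANATA, counted on the transcript strand. Gm7292, a single-exon lincRNA of 2527 bases on chromosome 6, holds 9, Neat1 holds 4, 8 of the 75 genes hold 1 or 2 and 64 hold none. Gm7292 matched 2900097C17Rik over its whole length, with a best stretch of 2537 aligned bases at 99.2% identity, and had 10.1 FPKM in the Oct4 and SOX2 library and 10.7 FPKM in the control. A stretch around a shared motif is printed to show how alike these genes are, with the motif in capitals.
2900097C17Rik, chr2:156391607-156391674, minus strand: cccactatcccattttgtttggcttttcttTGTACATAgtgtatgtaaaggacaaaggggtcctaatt
Gm7292, chr6:117717624-117717691, plus strand: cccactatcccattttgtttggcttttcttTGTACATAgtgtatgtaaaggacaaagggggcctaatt
The stretches of 68 bases, from GENCODE M21 on GRCm38, differ at 1 base. With so close a copy, the split of reads between these genes is uncertain.

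1700020I14Rik, named Oip5os1 in RefSeq with Cyrano as a synonym, is known in mice for a site that pairs with the microRNA miR-7 and leads to its breakdown. It had 9.36 FPKM from 2477 reads in the Oct4 and SOX2 library, against 11.1 FPKM from 2941 reads in the control, 1.19-fold lower (1.12 to 1.25). The site was found in the annotated transcript and is printed with the mature microRNA. Capitals mark the 13 and 8 bases of the site that can pair, and the seed (bases 2 to 8) of the microRNA.
1700020I14Rik site, chr2:119602137-119602161, plus strand: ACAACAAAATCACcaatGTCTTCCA
mmu-miR-7a-5p: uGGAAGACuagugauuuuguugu
The site is from GENCODE M21 and the microRNA from RefSeq (GRCm38.p6). MicroRNA levels were not measured in these libraries.

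Genes that host small nucleolar RNAs (snoRNAs) carry in their introns the guides of ribosomal RNA modification. Of 21 listed, 15 reached 1 FPKM, 3 with a log2 ratio above 0 and 12 below, a median of -0.10, and none was 2-fold different. Of the 12401 genes at 1 FPKM, 6408 were below 0. Epb41l4aos at -0.007 and Dancr at -0.003 lie within the shift of 0.03 between scalings, so their side is uncertain. Among the 75 genes, Snhg20 had 5.24 FPKM in the Oct4 and SOX2 library and 8.18 FPKM in the control, 1.56-fold lower (1.39 to 1.76). Snhg12 had 6.79 and 9.30 FPKM in the same order, 1.37-fold lower (1.22 to 1.54). Snhg18 lay the other way, at 12.6 FPKM in the Oct4 and SOX2 library and 10.5 FPKM in the control, 1.196-fold higher (1.06 to 1.35). The intervals of the other hosts held 1. Snhg6 had 21.3 FPKM in the Oct4 and SOX2 library and 22.9 FPKM in the control. Epb41l4aos, the most abundant host, had 65.7 and 66.0 FPKM in the same order. Of the processed-transcript hosts at 1 FPKM, which the 75 genes leave out, only Snhg5 and Snhg4 had a log2 ratio above 0. Zfas1 had 28 FPKM in the Oct4 and SOX2 library and 47.25 FPKM in the control, 1.69-fold lower (1.61 to 1.77). Snhg15 had 15.1 and 23.5 FPKM in the same order, 1.55-fold lower (1.41 to 1.72). Snhg1 had 19.06 and 29.35 FPKM, 1.54-fold lower (1.451 to 1.635). Snhg8, Snhg17, Gas5 and Dancr were 1.003-fold to 1.12-fold lower. Snhg5 had 26.8 and 21.3 FPKM in that order, 1.26-fold higher (1.16 to 1.36). Snhg4 had 5.24 and 4.31 FPKM, 1.22-fold higher (1.09 to 1.35). Within exons of Malat1, Neat1, Tug1, Snhg12 and Snhg20, 15 short genes annotated on the same strand were all listed with 0 reads in both libraries. Those in Snhg12 and Snhg20 are annotated as snoRNA, scaRNA or miRNA. Those in Malat1, Neat1 and Tug1 carry only the general class misc_RNA. A read there lies on more than 1 gene, and whether such reads were left out of the counts was not tested. These zeros are therefore not read as absence of the RNAs. Of the snoRNA genes that lie between exons of host genes, Snord123 in Snhg18 had 6 reads in the Oct4 and SOX2 library and 10 in the control. Gm23639 in Epb41l4aos had 15 and 5 reads in the same order, and Snord87 in Snhg6 had 6 and 5.

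Of the 6 genes at 50 FPKM or more, Gm42047 was the highest, at 255 FPKM from 45909 reads in the Oct4 and SOX2 library and 274 FPKM from 49333 reads in the control, 1.07-fold lower (1.06 to 1.09). It alone held 37.1% of the reads of the 75 genes in the Oct4 and SOX2 library and 34.5% in the control, and Malat1 held 20.7% and 26.2% in the same order. Gm42047 resembles other genes: 64.2% of its transcript matched the lincRNA Gm48362 of chromosome 9 at 98.4% identity, and 3 further lincRNAs each matched over 50.9% to 53.6%. Those 4 genes had 0.389 to 0.437 FPKM in the Oct4 and SOX2 library and 0.147 to 0.483 FPKM in the control. Gm10076, at 45.9 FPKM in the Oct4 and SOX2 library and 58.9 FPKM in the control, matched the mRNA of the ribosomal protein gene Rpl41 over 99.7% of its length at 99.5% identity. Rpl41 itself had 1071 FPKM in the Oct4 and SOX2 library and 1153 FPKM in the control, so the separate value of Gm10076 is uncertain. Gm28901, at 12.3 and 8.06 FPKM in the same order, is the reverse of the messenger RNA of Hnrnpf, an RNA-binding protein gene, over its whole length. In all, 40 of the 75 genes matched no other annotated transcript, 6 matched over more than 50% of their length and 4 over more than 90%.

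Gm26917 had 37.6 FPKM from 3988 reads in the Oct4 and SOX2 library, against 71.5 FPKM from 7600 reads in the control, 1.90-fold lower (1.83 to 1.98). It lies 11 bases from CT010467.1, an entry for ribosomal RNA. CT010467.1 had 105 FPKM in the Oct4 and SOX2 library, against 247 FPKM in the control, 2.35-fold lower (2.29 to 2.41). The part of ribosomal RNA reads in the value of Gm26917 was not tested. The other highly expressed genes were Gm17201, at 24.1 FPKM in the Oct4 and SOX2 library and 21.5 FPKM in the control, and AU020206, at 21.1 FPKM in the Oct4 and SOX2 library and 16.0 FPKM in the control. AU020206 was 1.32-fold higher (1.23 to 1.41), while the interval of Gm17201 held 1. In Gm17201, 59.5% of the exon bases lie opposite an exon of Ankrd52, which had 24.3 and 22.3 FPKM in the same order.

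The exons of all transcripts of a gene, merged, form 1 unbroken block for 10 of the 75 genes and 2 or more blocks for 65, a split chosen after the values were seen. The 10 include Snhg12, which also has spliced transcripts. Of the 10 genes with 1 block, 7 had a log2 ratio below 0, with a median of -0.26. Of the 65 with 2 or more blocks, 40 were above 0, with a median of 0.22 and all 9 genes past 2-fold. The genes with 1 block also had more reads, a median of 793 in the larger library, against 271 for those with several. They include Malat1, Neat1, 2900097C17Rik and its copy Gm7292, and Gm26917, as well as Gm43703 at a log2 ratio of 0.84.

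The nearest coding gene with 1 FPKM or more in either library was found for each of the 75 genes by the distance between gene bodies, which was 0 for 16 that overlap. Gene and neighbour lay on the same side of 0 in 47 of 75 pairs, or 62.7%. For coding genes at 5 FPKM and their nearest coding gene, the same share was 4065 of 7623, or 53.3%. Across the 75 pairs by gene bodies the Spearman correlation of the log2 ratios was 0.34 and the Pearson correlation 0.16. Without Gm47524 it was 0.39 and 0.34 over 74 pairs, and over the 7623 coding pairs 0.12 and 0.18. These correlations describe pairs of genes within the same 2 libraries, which are not independent replicates. By distance between gene bodies, the same side was found in 9 of 16 overlapping pairs and 8 of 13 pairs up to 5000 bases apart. It was found in 18 of 29 pairs up to 100 kb apart and 12 of 17 farther pairs.

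**Figure D4:**
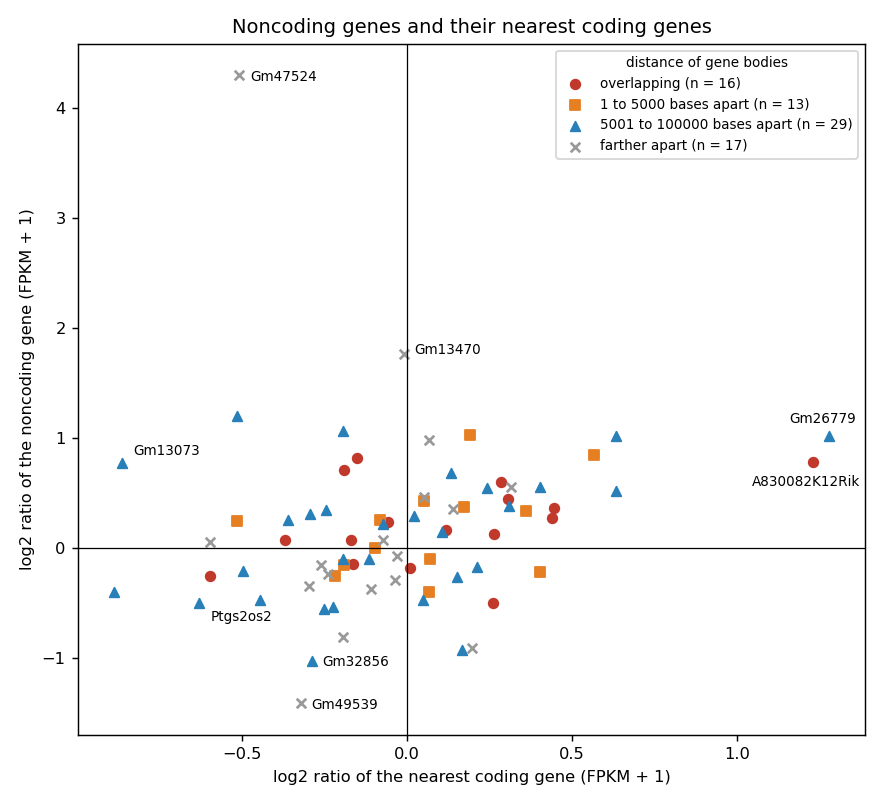
Log2 ratio (FPKM + 1, Oct4 and SOX2 library over control) of each of the 75 genes (vertical) against that of its nearest coding gene (horizontal), with symbols for the distance between gene bodies. Points in the upper right and lower left, 47 of 75, are pairs on the same side of 0; Gm26779 and A830082K12Rik lie far right and Gm47524 at the top has a neighbour below 0.

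Only the pair of Gm26779 and Gm15446 had both genes at least 2-fold higher by gene bodies. Gm15446, 32263 bases from Gm26779 on the same strand, had 5.91 FPKM in the Oct4 and SOX2 library and 1.85 FPKM in the control, 3.20-fold higher (2.75 to 3.73). Of the 11 coding genes within 500 kb of Gm26779 with 1 FPKM or more, 9 were above 0. Among these 9, the intervals of Ankle2 and Gtpbp6 held 1. Over all 12401 genes at 1 FPKM, 5993 were above 0. Such windows were counted for other genes too, with 1 of 6 above 0 at Gm49539 and 3 of 4 at Gm31342. Near Gm26779, the other gene past 2-fold was Zfp932, a zinc finger protein gene 105384 bases away. Zfp932 had 10.1 FPKM in the Oct4 and SOX2 library and 3.92 FPKM in the control, 2.58-fold higher (2.30 to 2.90). Measured between transcription starts, Gm32618 and Sdc2 formed a second such pair.

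A830082K12Rik is the overlapping gene whose coding partner differed most. Nr2f1 on the opposite strand had 18.6 FPKM from 3018 reads in the Oct4 and SOX2 library, against 7.35 FPKM from 1195 reads in the control, 2.53-fold higher (2.37 to 2.71). Of the exon bases of A830082K12Rik, 1.49% lie opposite an exon of Nr2f1. Whether counting used the strand is not given in the sources used here, so reads from the shared bases cannot be told apart. Ptgs2os2, known as lincRNA-Cox2 for its place beside the prostaglandin synthase gene Ptgs2 and for its induction in mouse macrophages, had 13.5 FPKM from 753 reads in the Oct4 and SOX2 library, against 19.7 FPKM from 1095 reads in the control, 1.45-fold lower (1.32 to 1.60). Ptgs2, 50816 bases away, had 86.2 FPKM in the Oct4 and SOX2 library, against 134 FPKM in the control, 1.55-fold lower (1.52 to 1.59).

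At shared start regions, 10 of the 75 genes began within 1000 bases of the start of a coding gene on the opposite strand. Of these 10 pairs, 6 were on the same side, beside 607 of 1152 such pairs of coding genes (52.7%). Among the 6, Setd5 beside Gt(ROSA)26Sor and Pik3r2 beside 2010320M18Rik had log2 ratios of 0.002 and 0.05. Their intervals held 1, so their side of 0 is uncertain. Gm43703 starts 769 bases from Lfng, which encodes a Notch-modifying glycosyltransferase. Lfng had 6.83 FPKM in the Oct4 and SOX2 library and 4.29 FPKM in the control, 1.59-fold higher (1.39 to 1.83), against 1.98-fold for Gm43703. Brip1os had 10.4 FPKM in the Oct4 and SOX2 library and 7.91 FPKM in the control, 1.32-fold higher (1.24 to 1.41), and starts 177 bases from the DNA helicase gene Brip1, which had 3.21 and 2.37 FPKM in the same order, 1.35-fold higher (1.21 to 1.51). Other pairs pointed apart. Snhg18 was 1.196-fold higher while Sema5a, whose start is 148 bases away, was 1.47-fold lower (1.42 to 1.52). Gm19610 had 6.15 FPKM from 80 reads in the Oct4 and SOX2 library and 5.84 FPKM from 76 reads in the control. Its interval (0.761 to 1.46) held 1, so its side of 0 is uncertain. Ereg, the gene of the growth factor epiregulin on the strand opposite Gm19610, had 32.1 and 41.7 FPKM in the same order, 1.30-fold lower (1.25 to 1.35). B230217O12Rik and Fam160b1 also lay on opposite sides, as did 1700086O06Rik and Dele1, though the interval of Dele1 held 1. Outside these 10 pairs, Gm13073 was 1.84-fold higher, while Slc25a33, a mitochondrial carrier gene, was 1.88-fold lower (1.73 to 2.06). Slc25a33 lies 5747 bases from Gm13073 on the same strand and had 13.1 FPKM in the Oct4 and SOX2 library and 24.7 FPKM in the control.

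In all, 23 of the 75 genes share exon bases with another annotated gene and 13 share them with a coding gene, in 12 cases on the opposite strand. None of the 9 genes past 2-fold shares exon bases with another gene. Whether reads on the shared bases were counted for the gene, for its partner or for neither was not tested. The values of the 23 genes, among them Gm17201, Gm29237, Gm19610, Brip1os and Tug1, are uncertain to that extent.

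Promoter sequences, 250 bases before to 50 bases after a start, were given by RefSeq (GRCm38.p6) for 37 of the 75 genes, and 21 of these starts lay within 100 bases of the deposited one. Motifs were counted on both strands and set beside all 32851 promoters of the same length. The octamer ATGCAAAT, a known POU factor motif, was found in 2 of the 37 (5.41%), Gm32856 and Tmem250-ps, against 1.74% of all promoters. The promoter of Gm32856 starts 11 bases from the deposited start and that of Tmem250-ps 978 bases away. The SOX core CATTGTT was found in 3 (8.11%), 4933404O12Rik, Gm38563 and Gm39469, against 3.78% of all. The start used for 4933404O12Rik is the deposited one, while those for Gm38563 and Gm39469 lie 712 and 1278 bases from it. Of the 7 genes past 2-fold on the higher side, 3 had a promoter in RefSeq (Gm13470, Gm13375 and Gm31342), with starts 195, 180 and 465 bases from the deposited ones. Neither motif was in these windows, and an exact joint POU and SOX element was found in no promoter. The AP-1 motif TGANTCA was found in 3 (8.11%), beside 7.81% of all, and the CRE motif TGACGTCA in 0, beside 1.79%. The core of the interferon response element (GAAA, any 2 bases, GAAA) was found in 2 (5.41%), Gm13073 and Ptgs2os2, against 3.44% of all. The promoters of Gm32856, which was 2.29-fold lower, and of Ptgs2os2 are printed with these motifs in capitals, 212 and 73 bases upstream of the start. The motif in Ptgs2os2 is on the reverse strand.
Gm32856, chr8:129263380-129263679, plus strand: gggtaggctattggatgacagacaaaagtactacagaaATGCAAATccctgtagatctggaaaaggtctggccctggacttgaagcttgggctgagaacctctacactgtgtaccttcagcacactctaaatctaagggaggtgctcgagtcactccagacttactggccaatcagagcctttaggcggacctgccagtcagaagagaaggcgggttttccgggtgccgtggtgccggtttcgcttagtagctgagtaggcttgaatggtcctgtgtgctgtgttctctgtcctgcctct
Ptgs2os2, chr1:150164899-150165198, minus strand: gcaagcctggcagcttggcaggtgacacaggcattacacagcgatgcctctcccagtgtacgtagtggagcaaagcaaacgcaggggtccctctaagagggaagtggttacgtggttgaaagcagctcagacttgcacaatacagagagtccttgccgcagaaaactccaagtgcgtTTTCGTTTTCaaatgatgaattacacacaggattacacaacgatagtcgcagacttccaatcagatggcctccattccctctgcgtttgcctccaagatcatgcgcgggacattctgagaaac
A motif in such a window is a match of letters, and binding was not measured.

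The lists of named noncoding RNAs held 131 symbols, of which 113 were in the table, 40 reached 1 FPKM and 10 were among the 75 genes. Of the 40, 1 was at least 2-fold higher, none was 2-fold lower, 9 had a log2 ratio above 0 and 31 below, with a median of -0.15, beside -0.01 over all 12401 genes at 1 FPKM or more, of which 300 (2.42%) were 2-fold higher and 230 (1.85%) lower. The one higher was Platr26, a lincRNA named as a pluripotency-associated transcript, with 26 reads or 1.27 FPKM in the Oct4 and SOX2 library, against 1 read or 0.0489 FPKM in the control. Its plain ratio of 26.0 has a counting interval of 4.28 to 1068. Of the 22 pluripotency RNAs measured, 3 reached 1 FPKM and none was among the 75. The highest of the 3 was Fendrr, a processed transcript, at 22.5 FPKM in the Oct4 and SOX2 library and 31 FPKM in the control. It was 1.38-fold lower (1.308 to 1.455). Platr25 had 1.43 and 1.39 FPKM in the same order, with an interval that held 1. Of the 9 imprinted noncoding RNAs in the table, none reached 1 FPKM. The smaller lists lay near 0 or below it: the median was -0.18 over 2 Hox cluster RNAs and over 4 microRNA hosts, 0.00 over 5 immune RNAs, -0.15 over 4 p53 and growth arrest RNAs and -0.12 over 4 other regulatory RNAs, with none of these genes past 2-fold on the FPKM + 1 scale. Dnm3os, an antisense RNA that carries microRNAs, had 1.39 FPKM from 352 reads in the Oct4 and SOX2 library, against 3.57 FPKM from 904 reads in the control, a plain ratio of 2.56-fold lower (2.26 to 2.91) that stayed within 2-fold on the FPKM + 1 scale. The same holds for Lncppara of the immune list, with 37 reads in the Oct4 and SOX2 library and 103 in the control, 2.78-fold lower (1.89 to 4.16). Terc, the telomerase RNA, had 5 and 14 reads in the same order, 2.79-fold lower with an interval that held 1.

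Among the rest of the 75, Bvht, known as Braveheart from mouse heart cell commitment, had 10.7 FPKM in the Oct4 and SOX2 library and 12.2 FPKM in the control, with an interval that held 1. Dubr had 15.0 FPKM from 2243 reads in the Oct4 and SOX2 library, against 10.7 FPKM from 1597 reads in the control, 1.41-fold higher (1.32 to 1.501). 1810058I24Rik had 12.4 FPKM in the Oct4 and SOX2 library and 8.19 FPKM in the control, 1.52-fold higher (1.38 to 1.67), and Nup205, a nuclear pore gene 5058 bases away, had 33.8 and 25.3 FPKM in the same order. Chromosome 5 held 11 of the 75 genes (14.7%), against 6.66% of coding genes at 5 FPKM. At the minimum itself, the 3 genes just inside were Gm34719, with 3.62 FPKM in the Oct4 and SOX2 library and 5.00 in the control, Gm31342, and Gm36033, with 4.28 and 5.11 FPKM in the same order. Just outside were Gm7160, with 3.52 FPKM in the Oct4 and SOX2 library and 4.95 in the control, 5930430L01Rik, with 4.42 and 4.96, and 3110039M20Rik, with 4.81 and just under 5.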

How the data were processed

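Total RNA of CT26 cells was sequenced in 1 library per group. The authors deposited 1 table of FPKM values for 54532 genes with gene length, position and biotype. CASAVA, HISAT2 and featureCounts 1.5.0-p3 on GRCm38 are named per the submitters' processing notes, and the NEBNext Ultra kit per the labels' protocols. The sources used here do not give RNA selection, strand setting, treatment of reads with several matches, annotation release or FPKM formula.

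Reads were recovered from FPKM times gene length, since in each library every such product (100%) was a whole multiple of a common step within 0.001 of a read. A 1 kb transcript with 3 reads has 0.0942 FPKM in the Oct4 and SOX2 library and 0.0940 FPKM in the control. Differences are log2 ratios of FPKM + 1, which understate those of low genes. Folds are plain FPKM ratios with exact 95% counting intervals (conditional binomial, Clopper-Pearson). Against 0 reads the floor was 3 reads in that library. With 1 library per group there was no test across samples. The interval step was tested on simulated data.

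All 75 genes were in GENCODE M21, 74 of them with the deposited coordinates. Exons and transcripts came from it, copies from blastn 2.17.0 (megablast, at least 95% identity), promoters and the microRNA from RefSeq. Motif and copy searches, exon number and start distance were added after the values were seen. The genes and lists were chosen with earlier results of these data known. Named are the 12 highest and 12 lowest genes by log2 ratio, the 10 with the highest mean level, those on the lists, their nearest coding genes and the 3 genes nearest the minimum on each side. Any other gene was chosen after its values were seen. Alternatives were other pseudocounts, minimums, scalings and subsets of the 75 genes, and another distance. Computation was in Python 3.11.15 with pandas 2.3.3, scipy 1.17.1 and numpy 2.4.6, and plots were drawn with matplotlib 3.10.9.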

Additional observations from a re-analysis of the deposited data

How the results depend on the processing

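Counts moved most with the pseudocount and the minimum, and the median log2 ratio stayed above 0 under the alternatives listed here. The values of the report were 7 genes at least 2-fold higher, 2 lower, a median log2 ratio of 0.14, 47 pairs on the same side and 1 pair with both genes past 2-fold. With a pseudocount of 5 FPKM, 2 were higher, 0 lower and 0 pairs were past 2-fold. With a minimum of 1 FPKM there were 462 genes, 26 higher, 8 lower, with a median of 0.0579, 262 pairs on the same side and 5 pairs past 2-fold. With a minimum of 10 FPKM there were 32 genes, 2 higher, 0 lower, with a median of 0.0685, 21 pairs on the same side and 0 past 2-fold. With 5 FPKM required of the mean, which left 63 genes, 1 was lower and the median was 0.0727. Where the whole counting interval had to lie beyond 2-fold, 3 were higher and 0 pairs passed. By transcription starts 43 pairs were on the same side and 2 pairs passed. The 52 genes that share no exon base had a median of 0.23, and the 15 antisense genes had 1 higher, 0 lower and a median of 0.27. A pseudocount of 0.1 FPKM, centring on the median, plain read totals (a shift of 0.03 on the log2 scale), lincRNAs alone, genes that overlap no coding gene and leaving out Gm47524, which was added after seeing the data, gave counts within 1.5 times those of the report and medians within 0.05. Of 48 single-gene values under other pseudocounts, 9 crossed the 2-fold rule, 7 of them with the pseudocount of 5. Genes close to 0, such as Epb41l4aos at -0.01, lie within the shift between scalings. No paired analysis was possible because each group holds 1 library, and for the same reason no library could be left out. At this depth the lowest genes rest on few reads, 22 and 86 for Gm49539, and a difference within the counting interval could not be seen.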
